A study of Macaca mulatta with 30 samples.

Results

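Neuropeptide Y (NPY) and its receptors NPY1R, NPY2R and NPY5R were followed in cortical area 32, a medial prefrontal region, of male rhesus macaques that drank ethanol. The members were the 4 rows of the gene table with these symbols, out of 15521 genes, and all 4 passed the filter on low values that left 12935 genes for testing. Total RNA without ribosomal RNA was sequenced with strand kept, in 30 libraries of 1 animal each. Every animal was naive to experiments at the start, was induced with 4% ethanol and then had open access to it for more than 12 months, so no group was free of alcohol. The submitters sorted the animals by intake. Very heavy drinkers (VHD, n = 6) averaged more than 3 g/kg a day with at least 10% of days above 4 g/kg. Heavy drinkers (HD, n = 7) took 3 g/kg or more on at least 20% of days. Binge drinkers (BD, n = 7) took 2 g/kg or more on at least 55% of days and reached a blood ethanol of 80 mg/dl at least yearly. Low drinkers (LD, n = 10) met none of these definitions. Cohort 4 gave 9 animals, cohort 5 and cohort 7a gave 8 each and cohort 7b gave 5, at mean ages of 9.98, 7.15, 5.70 and 7.18 years when drinking ended. LD animals came from cohorts 4, 7a and 7b and VHD animals from cohorts 5 and 7a, so VHD and LD met in cohort 7a alone. The authors left out 1 further animal as an outlier.

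NPY is a peptide that cortical GABAergic interneurons, many of them also making somatostatin, release from dense-core vesicles. It is cleaved and amidated from a precursor and acts on receptors that couple to inhibitory G proteins of the Gi/o class, which lower cyclic AMP, open potassium channels of the GIRK type and close presynaptic calcium channels. NPY1R is largely a postsynaptic receptor that dampens excitation, NPY2R is best known as a presynaptic receptor that limits release of NPY itself and of glutamate, and NPY5R shares ligands with NPY1R and is known for effects on feeding and seizures. The peptide has been studied as a brake on stress responses and on alcohol drinking in rodents. In bulk tissue fewer cells of a type and less RNA per cell cannot be told apart.

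Within area 32 the ligand was a mid-level transcript and its receptors spanned a wide range. Divided by the length of the measured exons, NPY averaged 190 ± 59.5 normalized reads per kb (SD, n = 30), which placed it above 69.4% of the tested genes. A normalized read is the authors' upper-quartile scaled read, 1 recorded read being worth 0.656 to 2.07 of them. NPY1R followed at 139 ± 22.97 per kb (above 59.7% of tested genes), NPY5R at 34.5 ± 7.83 (above 24.1%) and NPY2R at 7.77 ± 2.86 (above 6.21%), against a median of 102 for tested genes. NPY1R exceeded NPY5R in 30 of 30 libraries, with a median ratio per kb of 4.04, and NPY5R exceeded NPY2R in 30 of 30. The neighbours NPY and NPY1R were the exception, because NPY was the higher of the pair in 22 of 30 libraries and the ratio ran from 0.643 to 3.31.

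The receptor genes lie on chromosome 4 as the exon names of the authors give it, with the genome build and the base of the coordinates not given in the sources used here. NPY1R spans exons from 163531108 to 163539723 and NPY5R exons from 163551478 to 163559196, 11755 bases further along. NPY2R lies elsewhere on chromosome 4, from 155521106 to 155529462, and NPY on chromosome 7, from 83661875 to 83669497. No member shares an exon with another.

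The depth behind the members was modest. NPY rested on 46 to 219 recorded reads a library, NPY1R on 127 to 707, NPY5R on 18 to 125 and NPY2R on 7 to 57. For NPY the coefficient of variation over animals was 31.3%, against 9.90% that counting alone would give at its median read number. The same 2 values were 16.5% and 5.06% for NPY1R, 22.7% and 12.3% for NPY5R, and 36.9% and 18.9% for NPY2R. The spread over animals thus exceeded counting error for each member, by the smallest ratio in NPY5R and NPY2R.

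**Figure D1:**
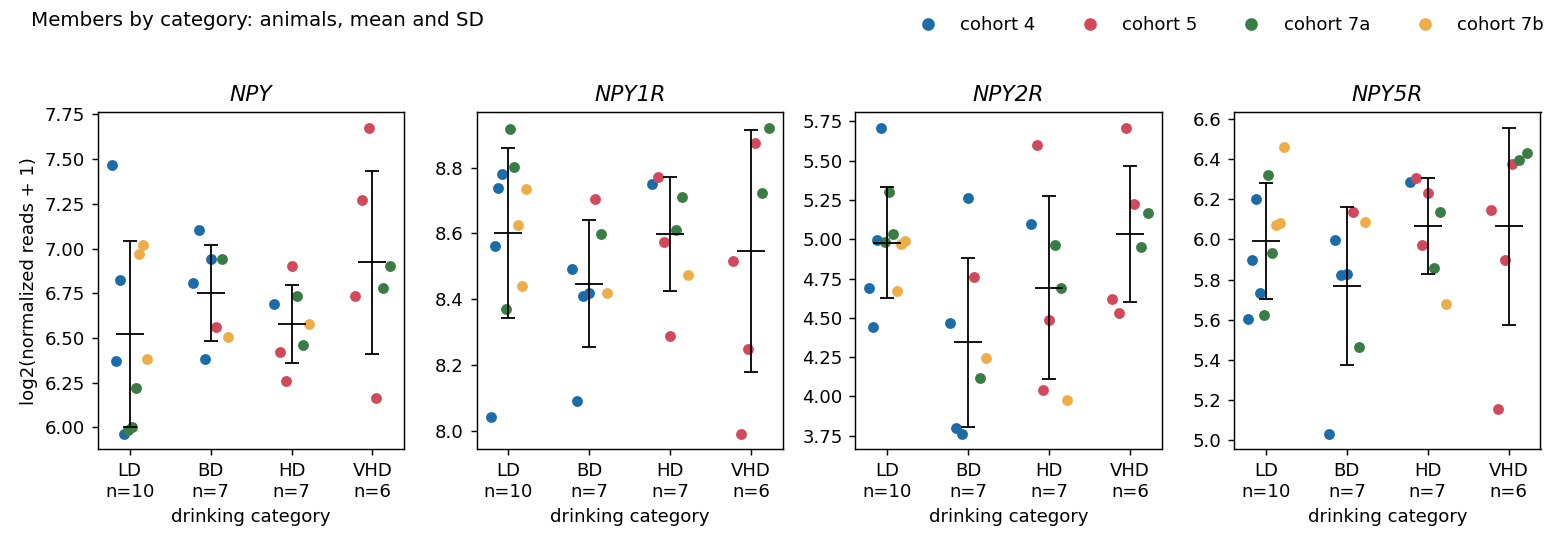
Each dot is 1 animal's value for NPY, NPY1R, NPY2R or NPY5R as log2 of normalized reads plus 1 (y axis, a separate scale per gene) by drinking category (x axis), coloured by cohort, with the mean and SD as bars. Every category overlaps LD for every gene, and 4 of the 7 BD animals lie below the lowest LD animal in NPY2R.

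NPY, the ligand, was highest in very heavy drinkers by mean and widest there and in low drinkers. In LD its normalized reads ran from 61.4 through a median of 82.1 to 176, with a mean of 96.6 ± 37.7 (SD, n = 10). VHD animals ran from 70.9 through 114 to 204, with a mean of 127 ± 46.0 (n = 6). The groups overlapped, 5 of the 6 VHD animals lying above the LD mean and 1 above the highest LD animal. Between these extremes, BD animals ran from 82.6 through 111 to 137 (mean 108 ± 20.0, n = 7) and HD animals from 75.7 through 94.5 to 119 (mean 95.5 ± 14.5, n = 7). Neither intermediate group reached as low as the lowest LD animals or as high as the highest VHD animal.

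With cohort in the model, the limma difference of VHD from LD in NPY was 0.57 ± 0.25 (SE) on the scale of log2 of normalized reads plus 1, with a 95% interval of 0.06 to 1.08. Its unadjusted p was 0.0294 and its p adjusted over all tested genes 0.948, so it did not pass the test. Of the tested genes, 1.86% had a smaller p. In this comparison 0 of the 4 members and 0% of all tested genes passed the adjusted threshold of 0.05. At an unadjusted p under 0.05 stood 1 of the 4 members, beside 3.5% of all tested genes by limma (453 genes, and 492 by edgeR). Without a model, an exact two-sided permutation test over all 8008 splits of the animals gave a mean difference of 0.40 and p = 0.154.

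The HD and BD differences of NPY from LD were smaller, at 0.16 ± 0.21 (interval -0.28 to 0.59, adjusted p = 0.774 by limma) and 0.21 ± 0.20 (-0.19 to 0.61, adjusted p = 0.999 by limma). These comparisons share the LD animals with the VHD comparison. Scored in equal steps over LD, BD, HD and VHD, the slope was 0.16 ± 0.08 per step, with an unadjusted p of 0.0503 and an adjusted p of 0.745 by limma. Of the 4 members 0 stood at an unadjusted p under 0.05 for this slope, beside 6.18% of all tested genes.

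Cohort 7a is the one in which all 4 categories were present, and there NPY separated low drinkers from the others. Its 3 LD animals held 62.4, 63.0 and 73.6 normalized reads. The 1 BD animal held 122, the 2 HD animals 87.2 and 105.5, and the 2 VHD animals 109 and 119. All 5 of these lay above all 3 LD animals, a grouping chosen after the values were seen. By the same measure 3.59% of tested genes had all 5 above all 3, and 14.2% had both VHD animals above the LD animals. The limma difference of VHD from LD within this cohort was 0.77, with an adjusted p of 0.758.

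Other cohorts gave no such separation. In cohort 4 the 4 LD animals spread from 61.4 to 176 in NPY and the 4 BD animals from 82.6 to 137. In cohort 7b the 3 LD animals held 82.3, 124 and 129, above the single BD animal (89.9) and the single HD animal (94.5) in 2 of 3 cases. The 4 VHD animals of cohort 5 ran from 70.9 to 204, a range that took in its BD animal (93.5) and its 3 HD animals (75.7, 84.8 and 119). A limma test of whether the slope over categories differed between cohorts gave an adjusted p of 1 for NPY, and 0 of the 4 members stood at an unadjusted p under 0.05, beside 2.24% of all tested genes.

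NPY1R, the postsynaptic receptor and the most abundant of the 3, had nearly the same level in each category. LD animals ran from 263 through 410 to 483 normalized reads (mean 393 ± 65.4), BD animals from 271 through 341 to 416 (351 ± 45.2), HD animals from 312 through 390 to 437 (389 ± 44.9), and VHD animals from 253 through 393 to 484 (383 ± 92.2). The lowest and the highest of all 30 libraries were both VHD animals. The limma difference from LD was -0.06 ± 0.15 for VHD (interval -0.37 to 0.25), 0.00 ± 0.13 for HD (-0.27 to 0.26) and -0.12 ± 0.12 for BD (-0.36 to 0.13). The adjusted p by limma was 0.967 for VHD, 0.997 for HD and 0.999 for BD. These are the narrowest intervals among the members, and changes within their bounds cannot be told from none.

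NPY2R, the presynaptic receptor and the rarest member, had its lowest values in binge drinkers. LD animals ran from 20.8 through 30.6 to 51.3 normalized reads (mean 31.4 ± 8.53, n = 10). BD animals ran from 12.6 through 17.97 to 37.4 (mean 20.6 ± 8.76, n = 7). The groups overlapped, with 6 of 7 BD animals below the LD mean and 4 below the lowest LD animal. HD animals lay at 14.8 through 24.8 to 47.4 (26.7 ± 11.4) and VHD animals at 22.1 through 32.4 to 51.1 (33.0 ± 10.6).

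The limma difference of BD from LD in NPY2R was -0.68 ± 0.24 (interval -1.17 to -0.19). Its unadjusted p was 0.00817 and its adjusted p 0.999, so it did not pass, and 0.417% of tested genes had a smaller p. Of the 4 members 1 stood at an unadjusted p under 0.05 for BD against LD, beside 3.05% of all tested genes by limma (394 genes, and 345 by edgeR), and 0% passed after adjustment. The exact two-sided permutation test without a model, over 19448 splits, gave -0.63 with p = 0.0118. In the F test over all categories NPY2R was again the 1 member at an unadjusted p under 0.05 (0.0429, adjusted p = 0.861 by limma), beside 5.62% of all tested genes. The HD and VHD differences were -0.37 ± 0.26 (interval -0.90 to 0.16) and -0.10 ± 0.31 (-0.72 to 0.53).

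Depth moved with this receptor. The BD libraries held 8.23 ± 3.94 M reads (M, 10 to the power of 6) and 3 of the 7 held under 6 M, against 9.01 ± 2.43 M and 1 of 10 in LD. Without the 6 libraries under 6 M reads the BD difference in NPY2R was -0.47 with an unadjusted p of 0.0925, and with log2 depth as a term it was -0.55 with an unadjusted p of 0.0092 by limma. Within cohort 4, which holds 4 BD and 4 LD animals, the difference was -0.64 with an unadjusted p of 0.125 by limma. Depth was not a term in that fit. The 3 BD libraries under 6 M reads all came from cohort 4. At 4.94, 5.04 and 5.17 M reads they held 12.9, 12.6 and 21.1 normalized reads of NPY2R. The remaining BD library of cohort 4, at 13.99 M reads, held 37.4, within the range of its LD animals (20.8 to 51.3). Within cohort 7a the single BD animal held 16.4 against 30.6, 31.7 and 38.4 in the LD animals. Its library had 6.15 M reads, against 7.80, 7.98 and 8.49 M in theirs.

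NPY5R, which shares ligands with NPY1R, did not separate the categories. LD animals ran from 47.6 through 63.1 to 87.2 normalized reads (mean 63.9 ± 13.1), BD animals from 31.7 through 55.7 to 69.4 (55.0 ± 13.5), HD animals from 50.2 through 69.3 to 78.2 (66.8 ± 10.7) and VHD animals from 34.6 through 75.9 to 85.2 (68.9 ± 19.7). The limma differences from LD were 0.07 ± 0.23 for VHD (interval -0.40 to 0.54), 0.07 ± 0.19 for HD (-0.33 to 0.46) and -0.19 ± 0.18 for BD (-0.56 to 0.18). In the HD comparison 0 of the 4 members stood at an unadjusted p under 0.05, beside 12.5% of all tested genes. In cohort 7a both VHD animals (83.3 and 85.2) lay above the 3 LD animals (48.3, 60.0 and 79.0). That made NPY and NPY5R the 2 of 4 members with no overlap there, beside 26.3% of all tested genes.

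**Figure D2:**
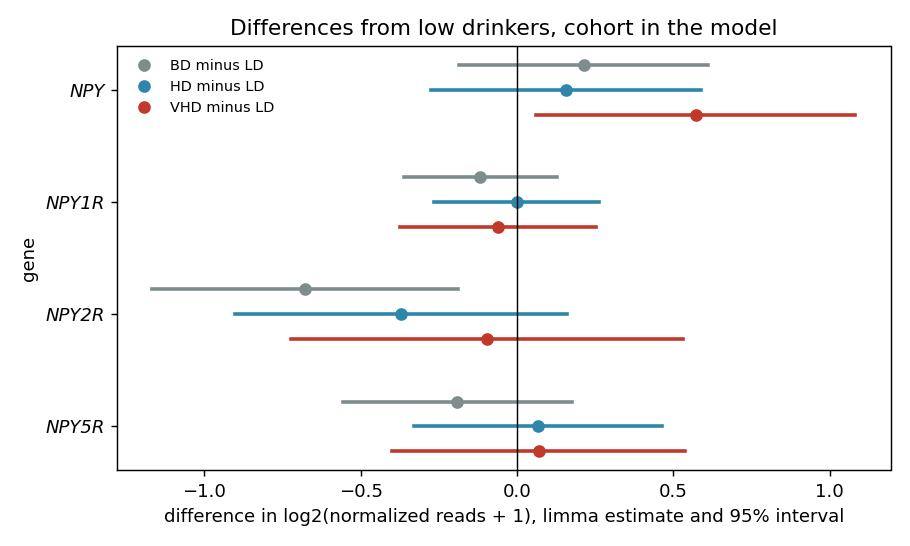
Points are limma differences of BD, HD and VHD from LD in log2 of normalized reads plus 1 (x axis) for each member (y axis), with cohort in the model, and lines are 95% intervals. The intervals of NPY in VHD (0.06 to 1.08) and NPY2R in BD (-1.17 to -0.19) leave out 0, and neither passed adjustment over 12935 genes.

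Cohort differences in the members did not pass their tests either. The limma F test over cohorts gave unadjusted p values of 0.395 for NPY, 0.281 for NPY1R, 0.656 for NPY2R and 0.794 for NPY5R, so 0 of 4 members stood under 0.05, beside 8.04% of all tested genes. Between the oldest cohort, 4, and the youngest, 7a, the difference was 0.32 ± 0.20 in NPY and -0.21 ± 0.12 in NPY1R, with adjusted p values of 0.657 and 0.632 by limma. Of the members 0 stood at an unadjusted p under 0.05 there, beside 9.15% of all tested genes. Markers of oligodendrocytes lay higher in cohort 4 without passing adjustment. All 7 of them had a difference above 0, with a median of 0.67, beside 51.8% of all tested genes above 0. Of the 7, 6 stood at an unadjusted p under 0.05 by limma. After adjustment 0 of 7 passed, the lowest adjusted p being 0.237 by limma. With the first principal component of the cell type markers as a term, the difference in NPY was -0.08 and in NPY1R 0.05. Age and cohort cannot be told apart.

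Across the 30 animals the ligand and its main postsynaptic receptor ran in opposite directions. Pearson's r between NPY and NPY1R was -0.615 and Spearman's rho -0.525, with permutation p values of 0.00032 and 0.00345, or 0.00192 and 0.0069 adjusted over the 6 pairs of members. Of the 12934 other tested genes, 0 had a lower r with NPY than NPY1R had, where the 5th percentile of genes was -0.305. Seen from NPY1R the pair stood out less. There 162 genes had a lower r with NPY1R than NPY had, and the 5th percentile was -0.492. The 5 genes nearest NPY1R by correlation also ran against NPY. Their r with NPY was -0.419 (LRRTM3), -0.550 (MGAT4A), -0.438 (LRRK2), -0.505 (SLC16A7) and -0.411 (FAM19A2), each below -0.305. The opposition to NPY was thus not particular to NPY1R. In residuals after category and cohort the r of NPY and NPY1R was -0.601, and 10 genes had a lower r with NPY. Within cohorts r was -0.730 in cohort 4 (n = 9), -0.840 in cohort 5 (n = 8) and 0.126 in cohort 7a (n = 8), and cohort 7b held too few animals for a value.

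**Figure D3:**
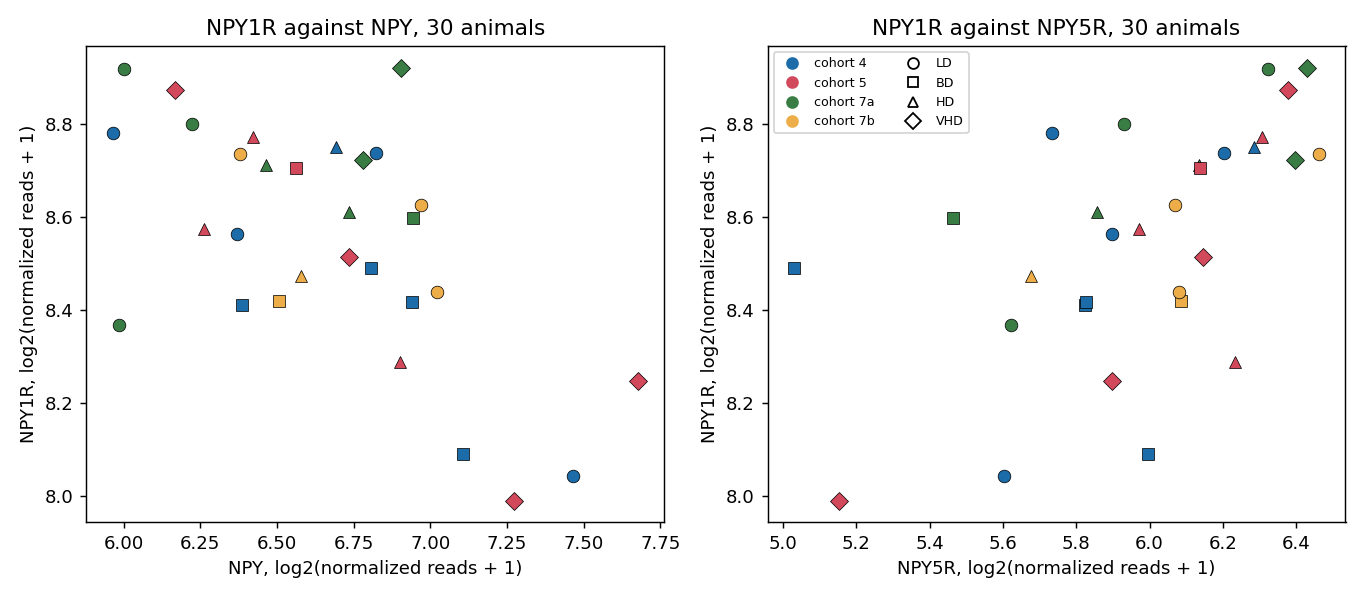
Each symbol is 1 animal, with NPY1R (y axis) against NPY (left) and against NPY5R (right), all in log2 of normalized reads plus 1, coloured by cohort and shaped by category. The 4 animals highest in NPY lie at the bottom of the left panel. In the right panel NPY1R and NPY5R tend to rise together, but their lowest and highest animals are only partly the same. The animal lowest in NPY5R (31.7 normalized reads), a BD animal of cohort 4, held 359 of NPY1R.

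Leaving out a few animals weakened this relation. The 4 libraries highest in NPY were also the 4 lowest in NPY1R: a VHD animal of cohort 5 with 204 normalized reads of NPY and 303 of NPY1R, an LD animal of cohort 4 with 176 and 263, another VHD animal of cohort 5 with 154 and 253, and a BD animal of cohort 4 with 137 and 271. They came from 3 categories and 2 cohorts. Without the 2 animals farthest from the median of NPY, r was -0.504. Without all 4, a set chosen after the values were seen, r was -0.289 over the other 26 animals, with a permutation p of 0.152.

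The markers and the depth were set beside this pair. The log2 sum of the 7 oligodendrocyte markers had an r of 0.408 with NPY (rho 0.257) and of -0.295 with NPY1R (rho -0.118), with permutation p values of 0.0251 (0.17 for rho) and 0.112 (0.537 for rho). None of these stayed under 0.05 when adjusted over the 8 relations of the members with depth and with this sum, the lowest being 0.0502. Without the 2 animals farthest from the median of the sum, r was 0.275 with NPY and -0.217 with NPY1R. The sum itself ran from 3377 to 19105 normalized reads over the libraries, and each of the 7 was above 0 in every library. In residuals after this sum the r of NPY and NPY1R was -0.567 (permutation p = 0.00108), after the marker component -0.461 (p = 0.0104) and after log2 depth -0.633 (p = 0.00013).

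NPY1R and NPY5R, neighbours on the chromosome, ran together. Their r was 0.576 and rho 0.605, with permutation p values of 0.00099 and 0.00064 (0.00297 and 0.00384 adjusted over the 6 pairs). It was 0.280 in cohort 4, 0.813 in cohort 5 and 0.777 in cohort 7a, and 0.430 without the 2 animals farthest from the median. Over all libraries 310 tested genes had a higher r with NPY1R than NPY5R had. Seen from NPY5R, 137 had a higher r than NPY1R had. For NPY1R and NPY2R r was 0.437 and rho 0.538 (permutation p = 0.0161 and 0.00229, adjusted 0.0322 and 0.00687). The other 3 pairs had an r of -0.087 for NPY with NPY2R, -0.241 for NPY with NPY5R and 0.326 for NPY2R with NPY5R, with adjusted permutation p values of 0.647, 0.24 and 0.118.

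The receptors, unlike the ligand, also ran with library depth. The r with log2 depth was 0.660 for NPY5R, 0.615 for NPY2R, 0.518 for NPY1R and -0.155 for NPY, where the median size of r over tested genes was 0.2505. Spearman's rho was 0.657, 0.618, 0.459 and -0.110, with permutation p values of 0.00017, 0.00031, 0.0111 and 0.563. Those of r were 5e-05, 0.00033, 0.00343 and 0.41, and adjusted over the 8 relations they were 0.0004, 0.00132, 0.00915 and 0.49. Without the 2 libraries farthest from the median depth r was 0.687, 0.602, 0.353 and 0.051 in the same order. In residuals after log2 depth the r of NPY1R and NPY5R was 0.364 (permutation p = 0.0479), that of NPY1R and NPY2R was 0.176 (p = 0.355), and that of NPY2R and NPY5R was -0.136 (p = 0.475). Adjusted over the 6 pairs these p values were 0.144, 0.532 and 0.57, so no pair of receptors passed once depth was removed.

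The exon table showed where along each gene these reads lay, with exons counted from the lower coordinate. NPY has 4 measured exons, of which exon 1 (83661875 to 83662079), exon 2 (83664131 to 83664211) and exon 3 (83668262 to 83668449) held 29.8%, 32.5% and 35.1% of its reads and the last 2.56%. NPY1R took 59.3% from its exon at 163531108 to 163532895 and 38.0% from that at 163532997 to 163533846. NPY2R took 93.9% from 1 exon of 3175 bases, and NPY5R 82.7% from 1 exon of 1667 bases. Each receptor value therefore rests mainly on 1 or 2 exons, while that of NPY rests on 3.

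**Figure D4:**
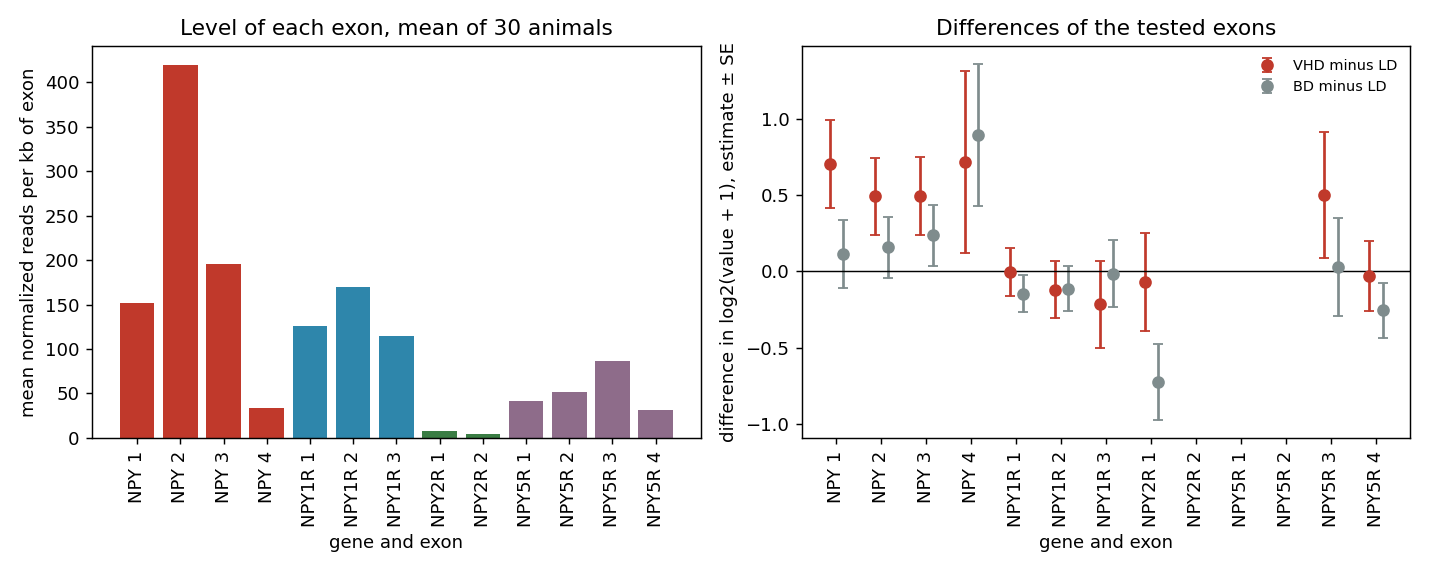
The left panel gives the mean normalized reads per kb of each measured exon over 30 animals (bars from 0), exons being counted from the lower coordinate, and the right panel the limma differences ± SE of the tested exons in VHD (red) and BD (grey) from LD in log2 of value plus 1. The 4 exons of NPY lie at 0.49 to 0.72 in VHD, and the tested exon of NPY2R at -0.72 in BD.

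Of the 13 member exons 10 passed the exon filter. In VHD against LD the exons of NPY differed by 0.70 ± 0.29, 0.49 ± 0.25, 0.50 ± 0.25 and 0.72 ± 0.60 in their order, each with an adjusted p of 1 by limma over 119940 exons. The first of them was the 1 of 10 member exons at an unadjusted p under 0.05 (0.0201), beside 3.51% of all tested exons. In BD against LD the large exon of NPY2R differed by -0.72 ± 0.25, with an unadjusted p of 0.00642 and an adjusted p of 0.958 by limma, again 1 of 10 beside 5.03% of all tested exons. Relative to their own gene, the differences in VHD ran from -0.15 for exon 3 of NPY1R to 0.43 for exon 3 of NPY5R, with adjusted p values of 1 by limma, and 0 of 10 passed beside 0% of all tested exons. So the exons of NPY had differences of the same sign, and no exon was called against the rest of its gene.

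The genes whose pattern over the 30 libraries was most like each member, by the highest Pearson's r of log2 values, differed between members. For NPY they were AIMP2 (0.647), MAS1 (0.628), SH3BGRL3 (0.608), the dynorphin precursor gene PDYN (0.601) and MARCKSL1 (0.595). For NPY1R they were the synaptic adhesion gene LRRTM3 (0.870), MGAT4A (0.857), the kinase gene LRRK2 (0.846), the monocarboxylate transporter gene SLC16A7 (0.808) and FAM19A2 (0.803). NPY2R lay nearest PET112 (0.706), GAS2 (0.669), PLA2G5 (0.658), LSG1 (0.655) and TMEM183A (0.648). NPY5R lay nearest WDR75 (0.755), the beta-catenin gene CTNNB1 (0.728), ZFX (0.726), SLC11A2 (0.718) and CNBP (0.690). Among the 17 tested genes that mark NPY interneurons and their kin, the somatostatin gene SST had the highest r with it, at 0.553. These values are descriptions, and the libraries share depth and tissue makeup.

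Of the other genes of the NPY family, the related peptide gene PPY was at 0 in 22 libraries and reached 2.00 normalized reads, and the pancreatic polypeptide receptor gene PPYR1, an older symbol of NPY4R, was at 0 in 11 libraries and reached 7.39. Neither was tested, nor was the neuropeptide FF receptor gene NPFFR2, which reached 10.4. PYY, PPY2, NPY4R2 and NPY6R were not analysed here. The 2 tested relatives, the peptide gene NPFF and its receptor gene NPFFR1, differed by -0.15 ± 0.57 and 0.48 ± 0.45 in VHD, and 0 of 2 passed.

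In VHD against LD no gene of any list, from peptide processing to cell type markers, was called. Among all tested genes 49.9% lay above 0, with a median of 0.00. Of 14 genes for peptide cleavage and dense-core vesicles 11 lay above 0, with a median of 0.08. They include SCG3, a granin that sorts peptides to vesicles (0.21 ± 0.11), the carboxypeptidase gene CPE (0.09 ± 0.06) and the convertase genes PCSK2 (0.10 ± 0.10) and PCSK1 (0.14 ± 0.13). Of 17 genes that mark NPY interneurons and their kin 5 lay above 0, with a median of -0.06. Those below 0 included the transcription factor gene LHX6 (-0.17 ± 0.12), the substance P receptor gene TACR1 (-0.30 ± 0.22) and RELN (-0.18 ± 0.15). The 5 above 0 were SST (0.23 ± 0.20), CORT (0.20 ± 0.28), NR2F2 (0.15 ± 0.19), SATB1 (0.14 ± 0.11) and CRHBP (0.03 ± 0.16), named after their values were seen. SST, the list gene with the highest r with NPY, was thus on the same side as NPY, and the difference between NPY and the list was not tested.

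Downstream of the receptors, 9 of 21 genes for Gi/o coupling and its effectors lay above 0 in VHD, with a median of -0.04. The adenylyl cyclase genes ADCY3, ADCY5 and ADCY1 differed by -0.22 ± 0.11, -0.15 ± 0.12 and -0.09 ± 0.07, and the G protein subunit gene GNG2 by 0.18 ± 0.11. Of 20 genes of the CREB, BDNF and activity list 15 lay above 0, with a median of 0.17, and 2 stood at an unadjusted p under 0.05, beside 3.5% of all tested genes. These were the nuclear receptor gene NR4A3 (0.52 ± 0.19) and the BDNF receptor gene NTRK2 (0.20 ± 0.09), next to NR4A2 (0.60 ± 0.31) and BDNF itself (0.36 ± 0.18). Of 10 other cortical peptide genes 7 lay above 0, with a median of 0.02, among them PDYN (0.23 ± 0.16), ADCYAP1 (0.25 ± 0.20) and CARTPT (0.23 ± 0.52), while TAC3 lay at -0.11 ± 0.18. Each gene named in the pathway lists had an adjusted p of 0.948 to 0.985 by limma.

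The neuronal markers of cortex were measured. The 8 tested excitatory neuron markers summed to 23597 to 33125 normalized reads a library and the 11 other interneuron markers to 9796 to 13170. Of those 11, 4 lay above 0 in VHD against LD, with a median of -0.05 and a highest difference of 0.11. The 4 with the smallest p lay below 0, namely PVALB (-0.46 ± 0.39), SNCG (-0.27 ± 0.13), SYT2 (-0.37 ± 0.22) and ADARB2 (-0.23 ± 0.17). The summed levels of the 11 overlapped between VHD (9870 to 11999) and LD (10443 to 12558). The libraries held 4.39 to 13.99 M reads.

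Markers of other cells were compared between VHD and LD in the same way, each named by its p value. Of 7 oligodendrocyte markers 6 lay above 0 with a median of 0.18 and 0 at an unadjusted p under 0.05, among them CLDN11 (0.43 ± 0.27), MOBP (0.37 ± 0.40) and MBP (0.18 ± 0.23). Their sum ran from 4044 to 11048 normalized reads in VHD and from 3910 to 10447 in LD. Of 10 vascular markers 2 lay above 0 with a median of -0.24, the smallest p values being those of TIE1 (-0.44 ± 0.21), FLT1 (0.20 ± 0.11), NOTCH3 (-0.28 ± 0.17) and VWF (-0.32 ± 0.20), and their sum ran from 3736 to 6340 in VHD and from 3592 to 6472 in LD. Of 8 excitatory neuron markers 6 lay above 0 with a median of 0.10, led by BCL11B (0.30 ± 0.12), CAMK2A (-0.11 ± 0.09), FOXP2 (0.24 ± 0.26) and NEUROD6 (0.09 ± 0.14). The astrocyte list had 3 of 7 above 0 and a median of -0.04, led by AQP4 (0.29 ± 0.12), GFAP (-0.30 ± 0.17), ALDH1L1 (-0.16 ± 0.14) and SLC1A3 (0.07 ± 0.07). Microglia markers had 2 of 7 above 0 and a median of -0.08, led by SPI1 (-0.67 ± 0.28), CSF1R (-0.19 ± 0.13), P2RY12 (0.12 ± 0.13) and CX3CR1 (-0.08 ± 0.15), and oligodendrocyte precursor markers 3 of 4 and 0.10, led by VCAN (0.33 ± 0.13), OLIG1 (0.16 ± 0.42), PDGFRA (-0.04 ± 0.11) and OLIG2 (0.04 ± 0.17). At an unadjusted p under 0.05 stood TIE1 (1 of 10 vascular markers), BCL11B (1 of 8), AQP4 (1 of 7), SPI1 (1 of 7) and VCAN (1 of 4). Of the oligodendrocyte markers 0 of 7 and of the other interneuron markers 0 of 11 did so, beside 3.5% of all tested genes. With the first principal component of the markers as a term, the VHD difference of NPY was 0.46 with an unadjusted p of 0.0515 by limma.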

How the data were processed

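The deposited gene and exon tables hold a signal, namely reads that the authors brought to 1 upper quartile per library; per the submitters' processing notes CASAVA, FastQC, STAR 2.3.0e and edgeR were used, in roles and settings (the use of strand in counting among them) not given in the sources used here. Dividing by the smallest step of a library returned whole reads for 100% of values within 0.01. Genes reaching 10 normalized reads in 6 or more of 30 libraries were fitted on the scale of log2(value + 1) by limma 3.58.1 (mean trend) in R 4.3.3, on category and cohort, with Benjamini-Hochberg adjustment over all 12935 genes; exons needed at least 5 in 6 libraries. edgeR 4.0.16 on the recovered reads was an alternative. Permutation tests used numpy 2.4.6 in Python 3.11.15, with 100000 draws where not exact, and are two-sided. Figures used matplotlib 3.10.9. In simulated data 58.2%, 85.1% and 93.9% of 1.5, 2 and 4-fold changes were recovered for VHD against LD. For BD they were 77.6%, 89.6% and 100%, with about 67 genes a size among 12932 and 12945. Those data held 200 changed genes, which eases adjustment, and no cohort or tissue differences. The shares are therefore not the power for a single member in the real libraries.

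The members and lists were chosen with earlier results of these data known. Named are the members, the 5 genes nearest each by correlation, all family relatives and, from each list, the 4 genes with the smallest p in VHD against LD; 2 of the genes so chosen are not reported here but stay in the counts. All 4 symbols matched the reference table, and no sequences are shown. Alternatives were pseudocounts of 0.25 and 4, no filter or a minimum of 100, median-of-ratios scaling, terms for marker genes, log2 depth or sets of 8 library numbers, array weights, fewer terms or groups, and each library left out; the fit within cohort 4, the BD exon fit, and the pair values without the 4 animals or after depth and markers were chosen after the data were seen.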

Additional observations from a re-analysis of the deposited data

Results flagged for a closer look

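In NPY5R within cohort 5, 1 VHD animal lay far below the other 7 animals, at 34.6 normalized reads. Such a gap was found in 1 of 32 groups of members by category or cohort, which reuse the same animals. Chance alone gives about 1 in 20, so 1 of 32 does not exceed chance. The library of that VHD animal held the lowest NPY1R of all 30 animals (253) and a high NPY (154), with 6.58 M reads.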

How the results depend on the processing

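No member passed the adjusted threshold between categories or cohorts under any alternative or without any 1 library. Of 590 alternative values 564 kept their side of the threshold, count or level, and their direction where they have one. F tests, counts of called genes and levels have no direction. Most adjusted p values of the members lay far above 0.05, so keeping their side says little. NPY in VHD stayed above LD, from 0.40 without the cohort term to 0.77 within cohort 7a, and from 0.46 to 0.69 without 1 library, where the unadjusted p was under 0.05 in 25 of 30. NPY2R in BD ran from -0.99 to -0.47, and from -0.82 to -0.57 without 1 library. The 19 reversals were in results whose main unadjusted p was above 0.05, by limma or, for the r of a pair, by permutation. The cause was not tested. Without the cohort term NPY2R was 0.0551 in VHD and 0.0129 for the slope. With only the categories compared NPY1R was 0.127 in VHD and 0.014 in HD, and NPY5R -0.0038 in HD. Within cohort 7a NPY1R was 0.127 in VHD and 0.0342 for the slope. Both VHD values are the same contrast, because VHD and LD met in cohort 7a alone, yet each is counted among the reversals. With log2 depth NPY1R in HD was 0.022. With the marker component NPY1R was 0.0088 in VHD, 0.0229 in HD and 0.0055 for the slope, and cohort 4 against 7a was -0.075 for NPY, 0.0457 for NPY1R, 0.0531 for NPY2R and 0.0684 for NPY5R. NPY2R in that comparison was 0.22 without libraries under 6 M reads and 0.0728 by edgeR. After log2 depth the correlation of NPY with NPY2R was 0.011 and that of NPY2R with NPY5R -0.136. The correlation of NPY1R and NPY2R lost significance after log2 depth (0.176) and without libraries under 6 M reads (0.349), and that of NPY and NPY1R without the 4 animals highest in NPY (-0.289). Adjusted over the 6 pairs, that of NPY1R and NPY5R also lost it after log2 depth (0.364, adjusted p = 0.144). Without 1 library, NPY1R ran from -0.15 to 0.0193 in VHD, -0.0734 to 0.0494 in HD and -0.0427 to 0.00023 for the slope. NPY2R ran from -0.20 to 0.0149 in VHD and from -0.18 to 0.0201 for cohort 4 against 7a. NPY5R ran from -0.0584 to 0.21 in VHD, -0.0346 to 0.24 in HD and -0.0086 to 0.0627 for the slope. Over all genes, 1 was called in HD without the cohort term, 26 between cohorts 4 and 7a without the category term and 15 with library number sets, 0 to 7 without 1 library, and 1 for any cohort with library number sets. Where limma called 0 genes, 290 (slope by cohort) to 1623 (HD) stood at an unadjusted p under 0.05, and 294 to 1518 by edgeR, which also called 0. No paired analysis was possible because each library came from a different animal, in 1 drinking category. NPY2R has the fewest reads of the members, 7 to 57 a library, and NPY5R, at 18 to 125, the highest correlation with log2 depth.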
